A study of Mus musculus with 6 samples.

Results

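The 42 genes described here act in G2 and mitosis: cyclins and the kinase they activate, mitotic kinases, spindle checkpoint, kinetochore, spindle, cytokinesis and chromosome structure genes. They were chosen by symbol from a list of such genes, and all 42 were found among the 21606 genes of the count table. RNA was measured in bone marrow cells with high activity of aldehyde dehydrogenases (enzymes that oxidise aldehydes, used to sort a marrow fraction rich in progenitors, ALDHbr) of male and female C57BL/6 mice, a common inbred strain, genotype WT. There were 3 libraries per sex, and age and treatment are not given in the sources used here. The labels do not tie replicates to separate animals. A p-value here therefore sets the sexes against the spread of these libraries, and that spread may be technical. The libraries were made in 1 pool of 16 samples, 10 of them from lung and not analysed here.

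A cell enters mitosis when CDK1, bound to cyclin A or B, is freed of its inhibitory phosphates by CDC25 phosphatases. The Polo and Aurora kinases then build the spindle, the checkpoint holds anaphase until kinetochores are attached, and the anaphase-promoting complex, with CDC20 and UBE2C, destroys cyclin B and ends mitosis. Marrow progenitors divide often, and their mitotic transcripts are made late in the cycle, through promoter elements that include the cell cycle genes homology region (CHR), bound by the MuvB complex with B-MYB and FOXM1, and the box bound by NF-Y.

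The promoters of many members held the same short elements, which the choice of members did not use. RefSeq promoters (GRCm38.p6, 250 bases before to 50 after the start) were found for 35 of the 42 (not for Aurkb, Ccna2, Cdc25c, Incenp, Kif20a, Smc4 and Tpx2), and both strands were searched for the CHR letters TTTGAA or TTCGAA, the NF-Y letters CCAAT, and the E2F letters TTTCCCGC, TTTCGCGC, TTTGCCGC or TTTGGCGC. CHR letters stood in 29 of 35 members (82.9%), against 21.7% of the 27025 genes with a promoter in the RefSeq table and 17.0% of the tested genes. Within 50 bases of the start, the shares were 74.3%, 6.12% and 4.78%. NF-Y letters stood in 77.1% of members and 41.1% of all genes, and E2F letters in 1 member (Cdk1, 2.86%) and 2.60% of all genes. Among 36 S phase genes with a promoter the order differed: 16.7% held CHR letters and 36.1% E2F letters. Related lists held CHR letters too, in 83.3% of 6 condensin genes outside the members and 57.1% of 28 other mitotic genes with a promoter. The share was 44.0% of 25 other kinetochore genes, 25.0% of 16 anaphase-promoting complex genes and 0.0% of 15 G2 brakes and quiescence genes. NF-Y letters were not particular to the members. They stood in 80.0% of these G2 brakes and quiescence genes, 71.4% of other mitotic, 58.3% of S phase and 33.3% of the condensin genes.

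The letters also stood in a recurring arrangement. In 17 of 35 members (48.6%) an NF-Y match began 20 to 45 bases before a CHR match, against 1.25% of all genes, 1.53% of tested genes and 25.0% of the other mitotic genes. The 50-base window and this spacing were chosen after the members' matches had been seen. The following stretches are the 100 bases before the start of 7 members with the whole arrangement upstream of it, with NF-Y and CHR letters of either strand in capitals, and Ccnb1, which held the first and not the second.
Cdk1 (chr10:69352913-69353012, minus strand): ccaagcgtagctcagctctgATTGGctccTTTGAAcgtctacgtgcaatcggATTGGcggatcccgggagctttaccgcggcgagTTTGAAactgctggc
Cdc20 (chr4:118437344-118437443, minus strand): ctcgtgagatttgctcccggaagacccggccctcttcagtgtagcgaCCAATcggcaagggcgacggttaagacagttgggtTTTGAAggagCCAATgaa
Ube2c (chr2:164769829-164769928, plus strand): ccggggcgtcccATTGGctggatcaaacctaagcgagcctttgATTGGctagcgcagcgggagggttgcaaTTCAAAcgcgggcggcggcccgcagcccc
Bub3 (chr7:131560270-131560369, plus strand): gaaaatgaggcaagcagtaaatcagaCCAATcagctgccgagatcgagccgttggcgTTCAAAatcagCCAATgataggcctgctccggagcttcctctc
Kif11 (chr19:37376282-37376381, plus strand): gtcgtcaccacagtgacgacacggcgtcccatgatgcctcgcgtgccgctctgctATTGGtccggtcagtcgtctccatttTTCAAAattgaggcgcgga
Top2a (chr11:99024190-99024289, minus strand): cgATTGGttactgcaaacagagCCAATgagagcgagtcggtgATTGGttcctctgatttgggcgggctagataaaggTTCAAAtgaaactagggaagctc
Hmgb2 (chr8:57511743-57511842, plus strand): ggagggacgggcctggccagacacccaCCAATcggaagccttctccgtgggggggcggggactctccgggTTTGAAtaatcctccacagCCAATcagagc
Ccnb1 (chr13:100786487-100786586, minus strand): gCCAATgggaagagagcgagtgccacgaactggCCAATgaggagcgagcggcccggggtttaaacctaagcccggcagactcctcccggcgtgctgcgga

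In many other members the CHR letters lay at or just after the RefSeq start. The 20-base sites below show them, in capitals, for Cdc25b and Plk1, in which every female library lay above every male one, and for an Aurora kinase, a cyclin and a centromere gene. A match is a description of letters and shows no binding.
Cdc25b (chr2:131186948-131186967, plus strand): gttatttTTCGAAtatataa
Plk1 (chr7:122159458-122159477, plus strand): cgccgcgTTTGAAttcgggg
Aurka (chr2:172370526-172370545, minus strand): gagaaccTTTGAAttgtaac
Ccnb2 (chr9:70421538-70421557, minus strand): cgcggtaTTTGAAtcgcgga
Cenpa (chr5:30666895-30666914, plus strand): gtgatttTTTGAActgctgg

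**Figure D1:**
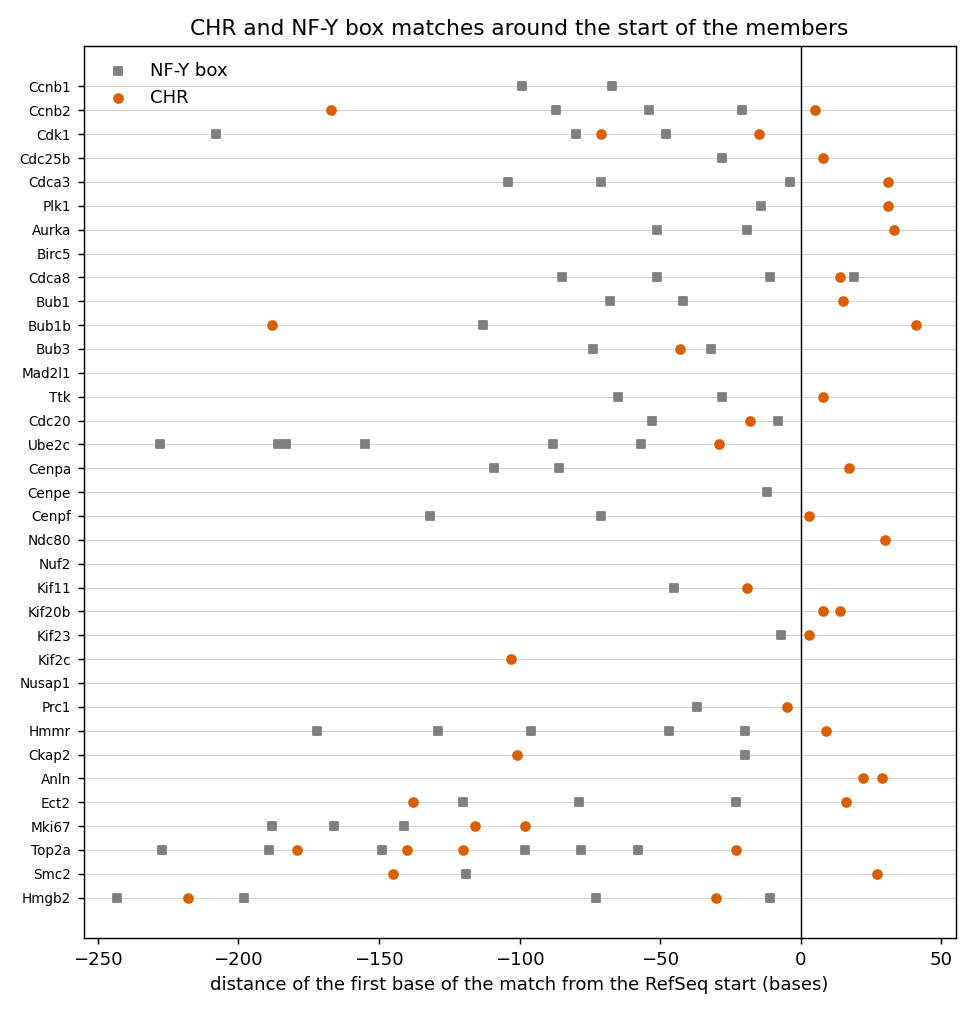
Positions of CHR matches (circles) and NF-Y box matches (squares), on either strand, relative to the RefSeq start (vertical line, horizontal axis in bases) in the 35 members with a promoter; where a gene had more than 1 entry, the one with the lower start coordinate is drawn. Most CHR matches lie within 50 bases of the start (26 of 35 members), and NF-Y matches lie mostly before them.

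Libraries held 679724 to 1475224 counts, and the male ones were the shallower. Male replicate 2 had the fewest counts, the largest share in ribosomal protein genes (17.4%, against 12.4% to 15.5% in the others) and the largest in mitochondrial ribosomal RNA (5.27%, against 1.71% to 3.95%). Levels are given in CPM, a gene's counts relative to its library's total, scaled by TMM, which corrects for library composition. Promyelocyte markers summed to 14682 to 15402 CPM in females and 13144 to 14169 in males, which did not overlap. Of these 6 genes, 3 fold changes lay below 0 and 3 above, and 0 passed the test described below. Stem and progenitor markers summed to between 513 and 624. Late neutrophil markers summed to between 14.5 and 26.6, with 3 of 8 at 3 or fewer counts over all libraries. Erythroid markers summed to 96.2 to 112 CPM in females and 219 to 364 in males, B lineage markers to 141 to 163 and 167 to 223, plasma cell markers to 7995 to 9261 and 6240 to 7292, and lung epithelial markers to 155 to 215 and 243 to 499. These are sums, and single genes can differ from them. Of 3 tested B lineage genes, 2 fold changes lay below 0, and 1 gene passed as higher and 1 as lower in males. Of 2 tested erythroid genes, 2 passed as higher. Of 5 tested plasma cell genes and 5 lung epithelial genes, 0 passed. Over all tested genes, 0.426% passed as higher and 0.154% as lower. What part these differences in marker genes have in the values that follow was not tested. In such bulk samples, fewer dividing cells and less mitotic RNA per dividing cell cannot be told apart.

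The summed mitotic transcripts differed between the sexes by less than the spread of the libraries. Together the 42 members had 6588, 6735 and 7180 CPM in the female libraries (replicates 1, 2 and 3) and 6822, 6672 and 7191 in the males. Under this TMM scaling, the lowest and the highest library of each sex nearly coincided, and no library stood apart. Scaled by library size only, male replicate 2 was lowest, with 6006 CPM against 6863 to 7391 in the others. The means were 6834 ± 308 (SD, n = 3) in females and 6895 ± 267 in males, a male to female ratio of 1.01 (0.945 when scaled by library size only, which puts males lower). The 95% exact counting interval of the ratio of pooled counts (1.01) was 0.992 to 1.03, and it covers counting error only. These sums rest on 4012 to 9943 counts per library, 0.590% to 0.726% of each total. Over the 6 libraries the highest sum was 1.09 times the lowest under TMM scaling. In the same libraries the immediate-early genes, early stress-response transcripts, differed 1.88-fold between the highest and the lowest sum, from 2921 to 3221 CPM in females and 3827 to 5479 in males. That list was chosen with earlier results of these data known. Its difference therefore does not show how small a mitotic difference could be seen.

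**Figure D2:**
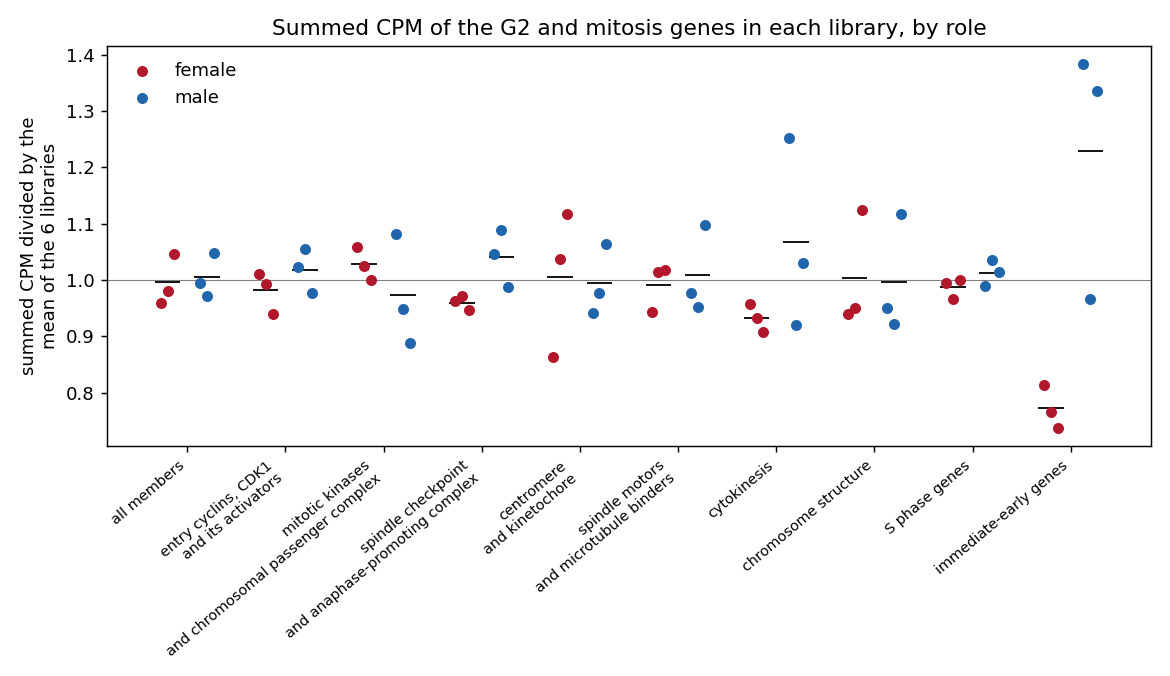
Summed CPM of each group of members, of the S phase genes and of the immediate-early genes, divided by the mean of the 6 libraries (linear axis); each point is a library, red for female and blue for male, and bars are means of 3. Under TMM scaling, all members together lie close to 1 in every library (highest over lowest 1.09), while the immediate-early genes separate the sexes. The immediate-early list was chosen with earlier results of these data known.

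No member passed the test between the sexes. Of the 41 tested members, 0 had an adjusted p below 0.05 (edgeR's quasi-likelihood test, Benjamini-Hochberg over the 8460 genes tested), where 0.579% of all tested genes did. Of those 49 genes, 36 (0.426%) were higher and 13 (0.154%) lower in males, a split of 29 to 23 when scaled by library size only. DESeq2 and limma-voom also called 0 members. At an unadjusted p below 0.05, edgeR found 3 members, against 11.3% of all tested genes (959 genes). DESeq2 found 1 member, lower in males, and 499 genes in all. In edgeR, Cdc25b and Plk1 were lower in males, as were 4.5% of all tested genes, and Ect2 was higher, as were 6.83%. The median log2 fold change, male minus female, was 0.03 over the members and -0.00301 over all tested genes. Scaled by library size only, both medians were below 0, at -0.07 and -0.09. Of the 41, 17 fold changes lay below 0, beside 50.7% of all tested genes. The 95% intervals of 38 members spanned 0; 26 lay wholly within 0.5 on the log2 scale of no change and 40 within 1, all but Cdc25b. A change smaller than these intervals was not detectable here, and larger ones could also be missed. In simulated counts with the same spread for every gene, 17.9% of genes changed by 0.5 on the log2 scale were called. Of those changed by 1, 85.1% were called.

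Groups of 3 libraries that do not overlap were also about as frequent as elsewhere. In 2 tested members, Bub3 and Ect2, every male library lay above every female one, where 7.57% of all tested genes did so. In 2 others, Cdc25b and Plk1, every female library lay above every male one, where 8.03% did so.

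**Figure D3:**
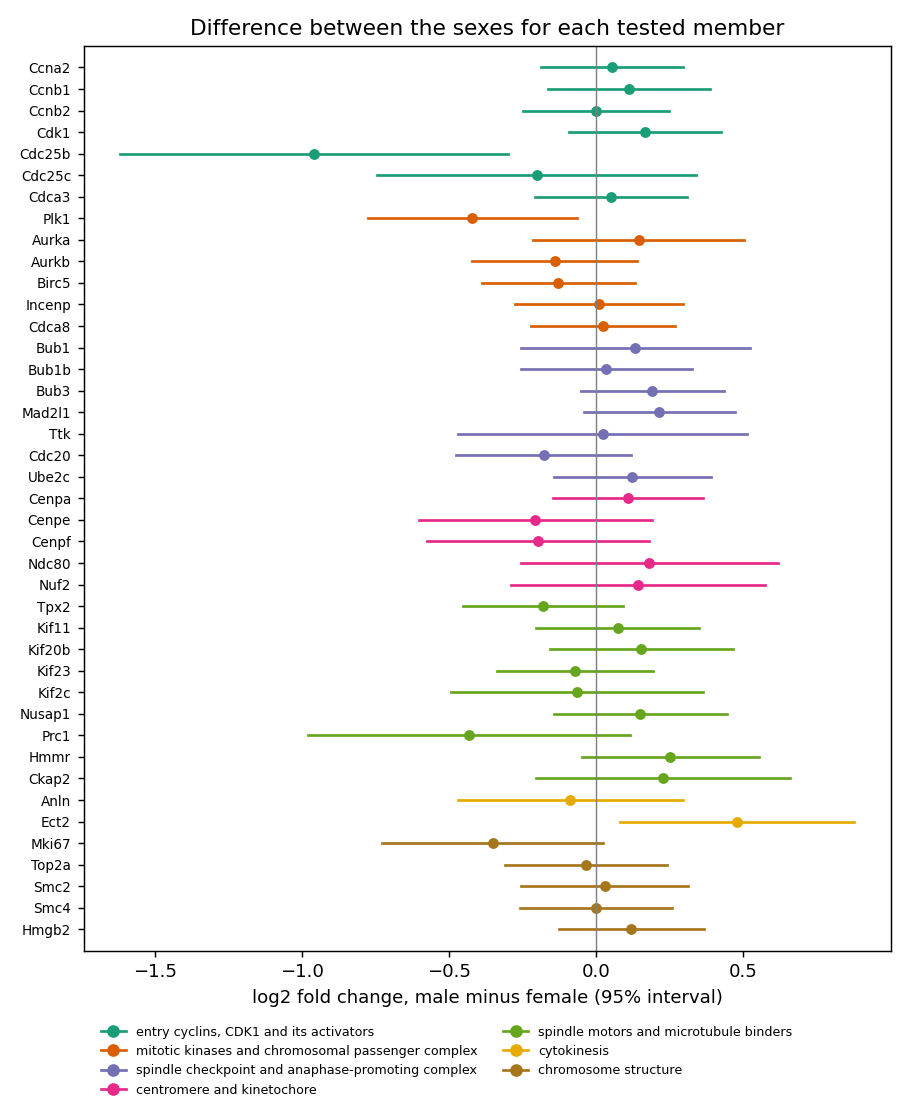
Log2 fold change, male minus female, of the 41 tested members (points) with 95% intervals from edgeR's quasi-likelihood fit (lines), coloured by role. Most intervals span 0, and Cdc25b, Plk1 and Ect2 have intervals that do not, without passing the adjusted threshold.

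Among the genes of mitotic entry, the cyclins and their kinase overlapped between the sexes, and the phosphatase Cdc25b had the largest fold change of the tested members. Ccna2, cyclin A2, which acts from S phase into early mitosis, had 196, 200.5 and 196 CPM in females and 207, 215 and 195 in males. Its log2 fold change was 0.05 ± 0.12 (SE), with an interval of -0.19 to 0.30 that reflects the spread of these libraries under TMM scaling. Scaled by library size only, the fold change was -0.039. Cdk1, the mitotic kinase, had 205, 211 and 176 CPM in females and 207, 248 and 213 in males, groups that overlapped (0.17 ± 0.12). Ccnb1, the main B-type cyclin, lay between 102 and 125 CPM in all 6 libraries. Ccnb2, the other mitotic B-type cyclin, lay between 155 and 175 CPM, and Cdca3, an adaptor in the destruction of the CDK1 inhibitor WEE1, between 135 and 159 CPM. Cdc25c, a phosphatase that activates CDK1, lay between 16.6 and 29.8 CPM.

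Cdc25b (chromosome 2, 131186949 to 131198497, GRCm38), a CDC25 phosphatase that starts CDK1 activation, had 25.8, 24.4 and 16.2 CPM in females and 10.5, 8.32 and 14.5 in males. All female libraries were above the male ones, but the closest pair was 16.2 against 14.5. These values rest on 32, 36 and 21 counts in females and 9, 5 and 12 in males. The log2 fold change was -0.96 ± 0.32, with an interval of -1.62 to -0.30, and it did not pass (edgeR, adjusted p = 0.225). Its exons overlap those of Spef1 on the other strand, and whether counting used strand is not stated in the labels, so reads of the pair cannot be told apart.

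The mitotic kinases and the chromosomal passenger complex, which corrects faulty attachments and steers cytokinesis, summed to 778 to 823 CPM in females and 690 to 841 in males. Plk1 (chromosome 7, 122159439 to 122169873), the Polo kinase of spindle assembly and mitotic exit, had 72.5, 79.2 and 75.4 CPM in females and 72.2, 49.9 and 45.8 in males. Male replicate 1 was level with the females, and the other male libraries were lower. The log2 fold change was -0.42 ± 0.17 (edgeR, adjusted p = 0.333); without male replicate 1 it was -0.67 and passed (adjusted p = 0.0316), the only member to do so when any single library was left out. Without male replicate 3 it was -0.28 (adjusted p = 0.733). Of all tested genes, 415 passed without male replicate 1 and 23 without male replicate 3, in place of 49. Plk1 exons overlap those of Gm44985 on the other strand.

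The passenger genes and Aurka overlapped between the sexes. Aurkb, the kinase of the complex, had 175, 167 and 150.1 CPM in females and 174, 151 and 120.5 in males, a log2 fold change of -0.14 ± 0.14. Birc5, survivin, which brings the complex to centromeres, had 196, 189.7 and 195 CPM in females and 179, 205 and 152 in males (-0.13 ± 0.13). Cdca8, borealin, lay between 159.7 and 185 CPM (0.02 ± 0.12), and Incenp, the scaffold, between 103 and 146 CPM. Aurka, the centrosomal Aurora kinase, lay between 53.0 and 85.0 CPM, with both the highest and the lowest value in males.

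The spindle checkpoint and anaphase-promoting complex genes were the role group whose sums did not overlap between the sexes under TMM scaling. They summed to 880.2, 888 and 865 CPM in females and 956, 996 and 903 in males, a pooled count ratio of 1.08 (95% counting interval 1.02 to 1.14). Scaled by library size only, the sums were 929, 905 and 891 in females and 999.5, 897 and 866 in males, which overlapped, with a ratio of means of 1.01. A list of 28 further kinetochore genes, outside the members, also had sums that did not overlap under TMM scaling. They were 1235 to 1293 CPM in females and 1304 to 1440 in males, a pooled count ratio of 1.07 (95% counting interval 1.03 to 1.12). No member of the checkpoint group passed. Of its 7 fold changes, 6 were above 0 and 1 below, where 50.7% of all tested genes lay below 0. Bub3, a checkpoint protein that docks on kinetochores, had 211, 207 and 221 CPM in females and 250.4, 251 and 228 in males (log2 fold change 0.19 ± 0.12; edgeR, adjusted p = 0.576). Mad2l1, which inhibits CDC20 while kinetochores are unattached, had 148, 163 and 154 CPM in females and 159.6, 205 and 179.5 in males (0.21 ± 0.12; adjusted p = 0.542), with an overlap at the lowest male library.

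The genes that end mitosis overlapped between the sexes. Ube2c, the ubiquitin-conjugating enzyme of the anaphase-promoting complex, had 249.6, 259 and 228 CPM in females and 287, 296 and 223 in males (0.12 ± 0.13). Male replicate 3 was below all female libraries and the other males above them. Cdc20, the activator of the complex, was the single gene of the group with a fold change below 0 (-0.18 ± 0.14), between 83.9 and 111 CPM. Bub1 and Bub1b, checkpoint kinases, lay between 41.6 and 65.1 CPM and between 78.5 and 87.0 CPM, and Ttk, the kinase that starts checkpoint signalling, between 25.7 and 39.8 CPM.

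At the centromere, the small histone and the long motor and scaffold genes ordered the libraries differently. Cenpa, the histone H3 variant that marks centromeres, had 233, 224 and 196 CPM in females and 225, 259 and 222 in males (log2 fold change 0.11 ± 0.12). Cenpe, a kinesin that brings chromosomes to the spindle equator, had 95.8, 131 and 192 CPM in females and 112, 98.1 and 149 in males (-0.21 ± 0.19). Cenpf, a large outer kinetochore protein, had 77.3, 113 and 149 CPM in females and 89.7, 94.8 and 111 in males (-0.20 ± 0.18). Female replicate 3 was the highest library for Cenpe and Cenpf and the lowest for Cenpa. Without female replicate 3, the fold changes of Cenpe and Cenpf were 0.08 and 0.04. Ndc80 and Nuf2, which grip microtubules within the same complex, lay between 37.0 and 67.1 CPM and between 28.3 and 43.4 CPM.

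The spindle motors and microtubule binders summed to 784 to 846 CPM in females and 792 to 912 in males. Kif23, a kinesin of the midzone, had 161, 145 and 140.1 CPM in females and 137, 126 and 158 in males (-0.07 ± 0.13). Tpx2, which activates Aurora A and nucleates microtubules, had 136, 153 and 130.1 CPM in females and 135, 108 and 124 in males (-0.18 ± 0.13). Hmmr, a spindle pole protein, had 90.2, 101 and 119 CPM in females and 125, 103 and 139 in males (0.25 ± 0.15; edgeR, adjusted p = 0.541). The sexes overlapped in all of these genes.

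Within the same group, Prc1, which bundles midzone microtubules, had 34.6, 28.4 and 45.4 CPM in females and 18.6, 21.6 and 38.6 in males. The third replicate was highest in each sex, and the log2 fold change of -0.43 ± 0.26 did not pass (edgeR, adjusted p = 0.570). It was -0.20 without male replicate 1, -0.24 without female replicate 3 and -0.85 without male replicate 3. Its exons overlap those of Rccd1 on the other strand. Kif11, the motor that separates spindle poles, lay between 108 and 132 CPM; Nusap1 between 83.8 and 111; Kif20b between 86.2 and 126; Kif2c, a microtubule depolymerase, between 30.3 and 53.2; and Ckap2 between 29.0 and 51.8. Kif20a, a midzone kinesin, was the member too low to test, with 2, 8 and 3 counts in females and 0, 0 and 1 in males.

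Of the cytokinesis genes, Anln, which links the contractile ring to the membrane, had 46.7, 46.1 and 46.2 CPM in females and 41.9, 36.6 and 50.6 in males (log2 fold change -0.09 ± 0.19). Ect2 (chromosome 3, 27097222 to 27153878), the exchange factor that activates RhoA at the cleavage furrow, had 45.1, 43.4 and 40.8 CPM in females and 78.0, 51.6 and 48.2 in males. All male libraries were above the female ones, and male replicate 1 stood above the rest. The log2 fold change of 0.48 ± 0.19 did not pass (edgeR, adjusted p = 0.322), and it was 0.21 without male replicate 1.

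The chromosome structure genes were the most abundant members and supplied the largest part of the sum, 2651 to 3169 CPM in females and 2599 to 3150 in males. BRB-seq reads come from 3' ends, so CPM was not divided by length, and this order is one of counted ends. Hmgb2, an abundant chromatin protein, had 861, 818 and 826 CPM in females and 886, 851 and 979.6 in males (log2 fold change 0.12 ± 0.12). Top2a, which untangles sister DNA, had 641, 672 and 830.4 CPM in females and 649.9, 639 and 801 in males (-0.03 ± 0.13, and above 0, up to 0.087, when female replicate 3 or either of the first 2 males was left out). The condensin cores Smc2 and Smc4 lay between 266 and 362 CPM and between 557 and 695 CPM. In each of Top2a, Smc2 and Smc4, the third replicate was the highest of its sex. Without Hmgb2, the member with the most counts, the ratio of all members was 0.998.

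Mki67 (chromosome 7, 135689784 to 135716361), the Ki-67 protein that coats mitotic chromosomes and marks cycling cells, had the largest spread beyond counting error, as measured below. It had 283, 360.3 and 456 CPM in females and 303, 185 and 364 in males, so that the sexes overlapped and male replicate 2 was far below the rest. The log2 fold change was -0.35 ± 0.18 (edgeR, adjusted p = 0.476). With single libraries left out it ran from -0.57 (without male replicate 3) to -0.14 (without male replicate 2); it was -0.17 without female replicate 3 and -0.51 without female replicate 1.

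The members shared no single order of libraries. Male replicate 2 was the highest library for 10 members and the lowest for 11, where it was so for 26.1% and 26.3% of all tested genes. The highest was male replicate 3 for 8 members, female replicate 3 for 8, female replicate 2 for 6, female replicate 1 for 5 and male replicate 1 for 4. Over the 15 pairs of libraries, the farthest from an even split was female replicate 1 against male replicate 3. There, 15 of 41 members were higher in the former, against 50.8% of all tested genes. The median deviation of the members from their own means was between -0.03 and 0.10 on the log2 scale in every library.

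A subset spread more widely between replicates of a sex. Spread beyond counting error was measured as the chi-square per degree of freedom between replicates of a sex, which is 1 when only counting error acts and grows with depth where it does not. Its median was 1.54 over the members and 1.17 over all tested genes. It was 22.6 for Mki67, 14.0 for Top2a, 12.9 for Cenpe, 7.98 for Smc2, 7.61 for Cenpf and 7.13 for Smc4. Larger values were found in 1.09% of tested genes for Mki67 and 3.24% for Smc4, without matching genes for level. Top2a, Smc4, Mki67 and Smc2 were among the 5 members with the highest mean CPM. Hmgb2, the most abundant of these 5, had 2.22. At the other end, Ccna2 had 0.189 and Bub1b 0.234.

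The 6 members with the largest spread are among the 7 members with the longest coding sequence, counted as the longest of the gene in GENCODE M21. The members of 4500 or more bases are Mki67, Cenpf, Cenpe, Kif20b and Top2a. All 5 were higher in female replicate 3 than in female replicate 1, with a median log2 ratio of 0.69. For Mki67, Cenpf, Cenpe and Top2a this partly restates the spread above, which holds the difference between these same replicates. Of the 18 members under 1500 bases, 6 were higher, with a median of -0.04. The same direction, at a smaller size, was found over all tested genes: 66.8% of 404 genes of 4500 or more bases were higher in female replicate 3 (median 0.12), and 46.7% of 4602 genes under 1500 bases (median -0.02).

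Male replicate 2 showed the opposite sign for long genes. Relative to the mean of the other 5 libraries, its median log2 deviation was -0.35 over all tested genes of 4500 or more bases and 0.11 over those under 1500. The long members had a median of -0.16 there, from -0.91 for Mki67 to 0.32 for Kif20b, and the short members 0.11. The members between did not follow length: their median was -0.23 from 1500 to under 3000 bases and -0.08 from 3000 to under 4500. The part of coding length in the spread of Mki67, Cenpe and Cenpf was not tested.

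**Figure D4:**
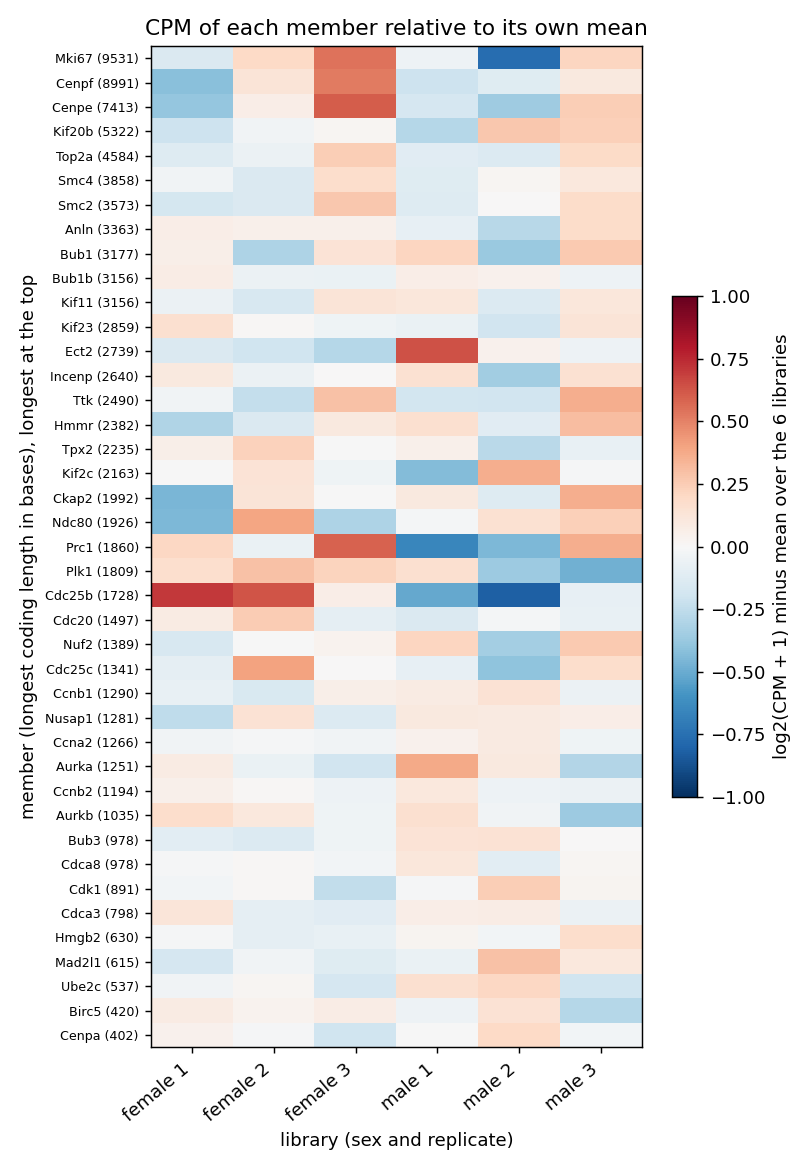
Log2(CPM + 1) of each tested member minus its mean over the 6 libraries (colour), with libraries as columns and members as rows, ordered by coding length (bases, in brackets). At the top, Mki67, Cenpf, Cenpe and Top2a are high in female replicate 3, Kif20b is not, and Mki67 is low in male replicate 2. Wide differences also occur among shorter members, such as Cdc25b.

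Among further genes of the cell cycle, 1 passed. In 7 lists of other mitotic and regulatory genes, edgeR, DESeq2 and limma-voom each called 0, where edgeR called 0.579% of all tested genes. Of 15 tested transcription regulators of G2 and mitosis, 13 fold changes lay below 0 and the exceptions were the NF-Y subunits Nfyb and Nfyc; the list's median was -0.21. Over all tested genes, 50.7% lay below 0. At an unadjusted p below 0.05 edgeR found 2 of the 15, where it found 11.3% of all tested genes (959 genes). DESeq2 found 0 of the 15, where it found 499 genes in all. The list's most abundant genes were E2f8, a repressor of the E2F family (-0.31 ± 0.14, edgeR adjusted p = 0.395), and E2f4 (-0.03 ± 0.15). Among 15 tested G2 brakes and quiescence genes, the median was 0.05, and 5 had an unadjusted p below 0.05 in edgeR. DESeq2 found 3 of these 15, beside its 499 genes in all. Of these 5 in edgeR, 3 were higher and 2 lower in males. Trp53, the gene of p53, had -0.33 ± 0.12 (edgeR, adjusted p = 0.273) and Btg2, an antiproliferative gene, 0.45 ± 0.12 (adjusted p = 0.118). Btg1, of the same list, went the other way from Btg2, with -0.63 ± 0.18 (edgeR, adjusted p = 0.156).

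The structural lists had medians from -0.12 to 0.12. At an unadjusted p below 0.05, edgeR found 2 genes of the anaphase-promoting complex, 0 of cohesin and 1 of condensin. It found 1 further kinetochore gene and 2 other mitotic genes, where it found 11.3% of all tested genes. The medians were -0.04 for 14 tested genes of the anaphase-promoting complex (Anapc5 -0.03 ± 0.12, Anapc11 -0.06 ± 0.13), 0.01 for 16 of cohesin and separase (Smc1a 0.01 ± 0.15, Smc3 -0.16 ± 0.13), -0.12 for 6 of condensin (Ncapd2 0.01 ± 0.14, Ncaph2 0.28 ± 0.12), 0.12 for 27 further kinetochore genes (Pmf1 -0.02 ± 0.13, Spc24 0.08 ± 0.14) and -0.01 for 31 other mitotic genes (Cks1b 0.11 ± 0.12, Racgap1 -0.18 ± 0.13). Of 43 tested S phase genes, 1 passed as higher in males and 0 as lower, where 0.426% and 0.154% of all tested genes did. At an unadjusted p below 0.05, edgeR found 4 higher and 1 lower, beside 6.83% and 4.5% of all tested genes. In 7, every male library lay above every female one, and in 2 the reverse, beside 7.57% and 8.03%. The gene that passed was Hells, a chromatin remodeller needed for DNA methylation. It had 159, 129 and 160.1 CPM in females and 211, 254 and 224 in males (log2 fold change 0.62 ± 0.13; edgeR, adjusted p = 0.0143). The S phase genes summed to 6495 to 6717 CPM in females and 6653 to 6955 in males, and the ratio of the members' sum to theirs ran from 0.959 in male replicate 2 to 1.07 in female replicate 3.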

How the data were processed

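The authors deposited a table of raw read counts for each gene and library, per the file headers; its values are whole numbers. Per the labels' protocols, libraries were made by BRB-seq, with barcoded oligo-dT primers and molecular identifiers, and samples were pooled before PCR. Per the submitters' processing notes, the tools included featureCounts 2.0.1, HISAT2 2.2.1, DESeq2, UMI-tools and Trim Galore 0.6.7, and the builds GRCm38 and GRCh38, with no role given. The collapse of identifiers and the use of strand are not given in the sources used here; PCR copies may be counted. Exons of 11 members overlap another gene, 10 of them on the other strand.

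Groups came from the titles. With edgeR 4.0.16 in R 4.3.3, filterByExpr (minimum count 10, minimum total 15) kept 8460 of 21606 genes. After TMM scaling, males were compared with females by the quasi-likelihood F test, adjusted by Benjamini-Hochberg over all tested genes. The steps were tested on simulated data. No library was a copy of another (chi-square per degree of freedom 1.98 to 4.09 within a sex). Alternatives were other scalings and filters, DESeq2 1.42.0, limma-voom (limma 3.58.1), a replicate block, each library left out, and, chosen after seeing the data, ribosomal protein and mitochondrial genes left out. Intervals are 95% and, for sums, cover counting error only.

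Full values are given for members past the threshold and, in each role group, the 2 most abundant and the 2 with the smallest p, and for other lists up to 4 genes that passed or the 2 most abundant; other members are given by range. Nfyb, Nfyc and Btg1 were named after their values were seen. The members and lists were chosen with earlier results of these data known.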

Additional observations from a re-analysis of the deposited data

How the results depend on the processing

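No member passed under any alternative with all 6 libraries; with single libraries left out the count was 0 to 1 (Plk1, without male replicate 1). The 49 genes called in all became 116 with no filter and 78 with the replicate block, and 23 (without male replicate 3; 32 without female replicate 2) to 415 (without male replicate 1) with single libraries left out. Scaled by library size only, the members' median log2 fold change was -0.066 and the ratio of sums 0.945. Of the named members, none of which had passed, signs changed for Ccna2 (-0.039) and Cdca8 (-0.066) with library size only and for Cdca8 with no filter (-0.0074). With single libraries left out they changed within ranges of -0.028 to 0.073 for Cdca8 (below 0 without male replicate 1), -0.41 to 0.082 for Cenpe, -0.40 to 0.038 for Cenpf and -0.15 to 0.087 for Top2a. The latter 3 were above 0 without female replicate 3, and Top2a also without male replicate 1 (0.017) or male replicate 2 (0.023). The cause was not tested. With single libraries left out, the members' median ran from 0.0010 to 0.068 and the ratio of sums from 0.988 to 1.03. The ratio has no separate value under limma-voom or the block.

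Same-numbered replicates correlated by 0.0260, 0.0289 and 0.0439 in their deviations from group means, and each sample correlated best with its own number. These small values do not decide whether the numbers pair the samples. The main test did not pair them. Under the replicate block 0 members passed, and 78 genes in all in place of 49. Counts of 5 to 36 per library limit Cdc25b.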

Other observations

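Outside the members, 86 tested genes had a promoter with NF-Y letters 20 to 45 bases before CHR letters. They summed to 6682, 6604 and 6586 CPM in the females and 6649, 6793 and 6829 in the males, with a median log2 fold change of -0.01 and 47 of 86 below 0, beside 50.7% of all tested genes.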
